A study of Mus musculus with 11 samples.

Results

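The 8 thymic samples that carried a MYC transgene were compared with the 3 samples of normal mouse thymocytes, and genes were taken as shared when all 8 lay on the same side of all 3 normal samples. The 8, of 11 samples in all, were 3 wild-type lymphomas, 3 Dnmt3b-deficient lymphomas and 2 samples of pre-tumor Dnmt3b-deficient thymocytes, and each was hybridised to its own whole-transcript expression array. All 11 mice were FVB, and all carried EμSR-tTA, which makes the tetracycline transactivator in blood cells, and Rosa26LOXPEGFP, a reporter that turns on EGFP after Cre has acted. Normal thymocytes came from EμSR-tTA;Teto-Cre;Rosa26LOXPEGFP;Dnmt3b+/+ mice at 24 days of age and had no Teto-MYC. Wild-type lymphomas carried Teto-MYC with Dnmt3bF/F and no Teto-Cre. Dnmt3b-deficient lymphomas and the 24 day pre-tumor thymocytes carried Teto-MYC, Teto-Cre and Dnmt3b-/-. Pre-tumor thymi were sorted for EGFP+ cells, lymphomas were taken whole once tumor burden was apparent, and the sorting of the normal thymocytes and the age of the tumor-bearing mice were not given in the sources used here. Each array received RNA from 300 ng of total RNA, so a change in RNA per cell would not be visible. No sample had the MYC transgene switched off, and pre-tumor cells with intact Dnmt3b were not analysed here. MYC expression, the cell types present and the handling of the tissue therefore cannot be told apart in the contrast with normal thymocytes.

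MYC is a transcription factor that binds DNA as a pair with MAX, with highest affinity at the E-box, and it is known for raising genes of ribosome assembly, nucleotide synthesis, protein folding and nutrient uptake. MAX also pairs with the MXD proteins, MNT and MGA, which repress at the same sites. In the thymus, most cells are double-positive thymocytes, which carry both CD4 and CD8, rearrange the T cell receptor alpha locus with RAG1 and RAG2, and for the most part do not divide.

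Values are the deposited log2 signals, in which 1 unit is a 2-fold difference and 3.32 (log2 of 10) is a floor. A difference is the mean of the 3 MYC group means minus the normal mean, and its SE and adjusted p come from limma's moderated test with Benjamini-Hochberg adjustment over 28939 probe sets. A gene was called higher or lower in all 8 when the adjusted p was under 0.05 and no MYC sample overlapped a normal sample. Of the probe sets, 3039 (10.5%) were higher and 3355 (11.6%) lower in all 8. By the adjusted p alone, with overlap allowed, 7519 (26.0%) differed, 3475 upwards and 4044 downwards. Of 19938 genes named by a probe set with a single symbol, 2112 (10.6%) were higher and 2679 (13.4%) lower, and these are the shares against which each gene group below is read. They include genes at the floor on all arrays, which cannot be called, and the gene groups were not matched to them by level. Among genes with mean level above 6, in 5 equal groups by genomic span, 13.6% to 34.8% were higher and 21.3% to 29.4% lower. The gene groups were also chosen with earlier results of these data known.

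**Figure D1:**
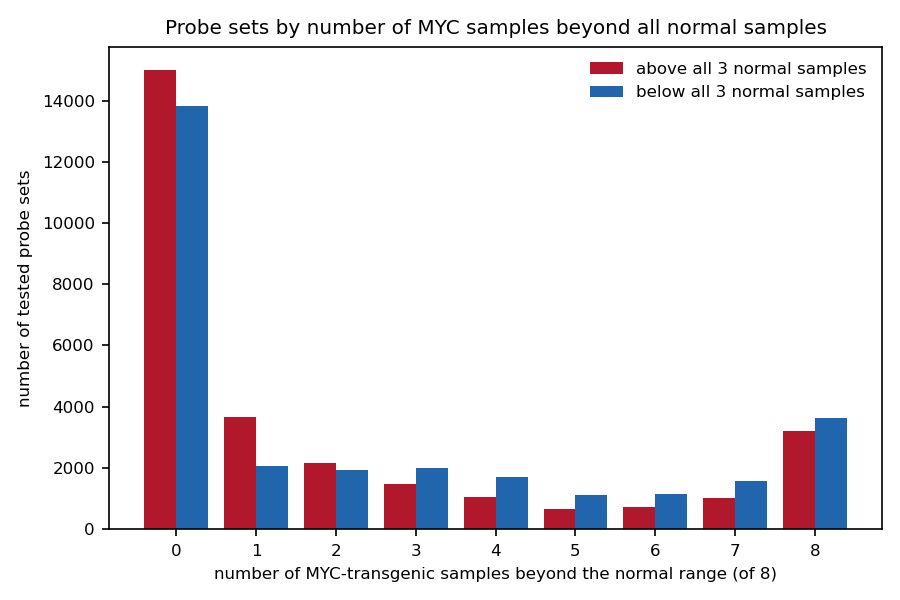
Number of probe sets, of 28939, against the number of MYC-transgenic samples (0 to 8) that lay above (red) or below (blue) all 3 normal samples. The bars rise again at the right end, where 3212 probe sets had all 8 samples above and 3621 had all 8 below, against 1005 and 1557 with 7 of 8.

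The size of the shared changes differed by direction. The median difference was 1.06 over the higher genes and -0.72 over the lower genes, and 218 genes rose by 4-fold or more against 119 that fell by as much. At 8-fold or more there were 20 higher and 26 lower genes. The median difference of the higher genes was 1.09 in pre-tumor thymocytes, 1.01 in lymphomas with wild-type Dnmt3b and 1.05 in Dnmt3b-deficient ones, each against the same 3 normal samples. The corresponding medians of the lower genes, in that order, were -0.71, -0.71 and -0.76. Genes that changed in only some of the groups were left out by the rule, so these medians cannot show how alike the groups are. By limma's moderated F test over the 3 MYC groups, 18 probe sets (0.0622%) differed among them at an adjusted p under 0.05, and 4 of these 18 were also called in all 8; at an unadjusted p under 0.05 the count was 2506. That 18 rests on single samples: it was 9 without normal replicate 1 and 11 without normal replicate 2, and 137, 131 and 92 without wild-type lymphoma replicate 3, Dnmt3b-deficient lymphoma replicate 1 and pre-tumor replicate 1. Array correlations were 0.971 to 0.984 between MYC groups and 0.911 to 0.965 between normal and MYC samples.

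The 12 higher genes with the widest gap between the nearest MYC and normal samples began with Mt1, which encodes a metallothionein that binds zinc. Mt1 read 5.66, 5.74 and 4.79 in the normal samples and 9.57, 10.41 and 11.40 as the lowest, median and highest of the 8, a difference of 4.96 ± 0.27 (SE, n = 8 and 3, limma adjusted p = 7.94e-05). The lowest MYC sample thus stood 3.83 above the highest normal sample. Ccnb1ip1, whose product is a ubiquitin ligase known for its part in meiotic crossing-over, read 4.26 to 4.43 in normal samples and 7.59 to 9.05 in the 8. Il9r, the receptor for interleukin 9, read 5.14 to 5.36 in normal samples and 8.03 to 8.84 in the 8, with a difference of 3.25 ± 0.13. Asns, which makes asparagine, differed by 3.88 ± 0.26, and its 2 pre-tumor samples, at 7.87 and 8.29, were the lowest of the 8. Car12, a carbonic anhydrase of the cell surface, spanned only 7.20 to 7.68 over the 8 against 4.03 to 4.66 in normal samples. The other members of this group were Fam185a, Hspd1 and 5 nucleolar genes described with ribosome assembly.

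The 12 lower genes with the widest gap were led by Ephb6, a receptor of the ephrin family that lacks kinase activity and is known in T cells. Ephb6 read 10.04, 9.89 and 9.85 in normal samples and 4.91, 5.43 and 6.89 as the lowest, median and highest of the 8, a difference of -4.30 ± 0.19 (SE, limma adjusted p = 5.82e-05). Plxnd1, a semaphorin receptor that guides thymocyte migration, fell by 4.04 ± 0.34 on the log2 scale. Dhrs3, a retinaldehyde reductase, fell by 3.71 ± 0.26, and Ly6d, a small surface protein of lymphoid cells, by 3.58 ± 0.42. Ccnd3, which encodes cyclin D3, the D-type cyclin known to be needed when thymocytes expand, read 10.69 to 10.85 in normal samples and 6.69, 7.12 and 8.32 as the lowest, median and highest of the 8. Its difference was -3.42 ± 0.27, so this cyclin was lower in every MYC sample. Slc37a2, Gpr162, Arsi, Slc16a5, Endou, Ldhb and H2-T10 made up the rest, with differences from -3.19 to -4.05. In 9 of these 12 genes (all but Endou, Ly6d and Slc16a5) a pre-tumor sample was the highest of the 8. The same count over all lower genes was not made. By a different measure, the group means, the change was smallest in pre-tumor thymocytes for 1087 of all 2679 lower genes (40.6%).

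**Figure D2:**
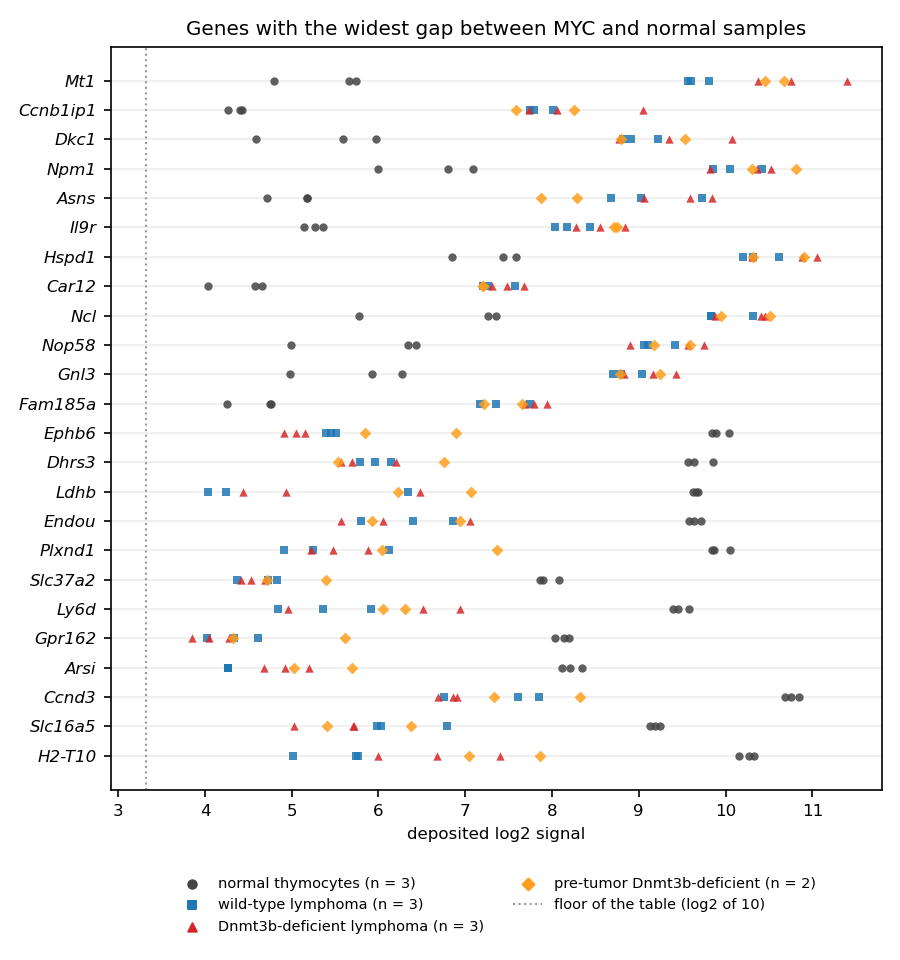
Deposited log2 signal of each of the 11 samples for the 12 higher (upper rows) and 12 lower genes (lower rows) with the widest gap between MYC and normal samples, with groups by colour and shape. For Mt1, normal samples sit at 4.79 to 5.74 and MYC samples at 9.57 to 11.40, and for Ephb6 the order is turned, with normal samples at 9.85 to 10.04 and MYC samples at 4.91 to 6.89.

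Some genes changed by about the same amount in every MYC sample. Among genes that moved by at least 2 on the log2 scale, Gmps, the GMP synthetase, had the smallest spread of those that rose, from 8.92 to 9.37 over the 8 against 7.09, 6.18 and 7.06 in normal samples. Slc35f2, a membrane transporter, read 8.06 to 8.59 in the 8 and 6.21 to 6.25 in normal samples. On the lower side, Ppt2, a lysosomal thioesterase, read 5.64 to 6.29 against 8.22 to 8.27. Sit1, a transmembrane adaptor that tempers T cell receptor signals, read 6.12 to 6.84 against 8.90 to 8.99, a difference of -2.45 ± 0.12 (SE). Clk3, a splicing kinase, and Gsn, an actin-severing protein, fell by 2.41 ± 0.14 and 2.43 ± 0.18. Otud4, Car12 and Cwc22 completed the evenly higher group and Car2 the evenly lower group, and 7 of the 8 probe sets for Cwc22 carried identical values.

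Within the MYC and MAX network, 1 of 13 measured genes rose and 6 fell. The mouse Myc probe set fell from 7.79, 8.13 and 7.77 in normal samples to 4.29, 5.10 and 5.87 as the lowest, median and highest of the 8, a difference of -2.65 ± 0.19 (SE, limma adjusted p = 0.000192). All 8 samples therefore had less of the RNA this probe set reads than any normal sample did, and whether it reads the Teto-MYC transgene was not given in the sources used here. Max, the common partner, read 8.39 to 8.48 in normal samples and 8.30 to 8.53 in the 8, and its difference of -0.01 ± 0.05 was smaller than the spread. Mxd4, a repressive partner of MAX, fell by 2.01 ± 0.21, from 9.05 to 9.14 down to 6.41 to 7.66. Mxd3 fell by 1.16 ± 0.12, Mxd1 by 0.91 ± 0.09, Mlx, the MAX-like partner of the glucose-sensing factors, by 0.82 ± 0.07, and Zbtb17, which encodes MIZ1, by 0.66 ± 0.11. Mga was the member that rose, by 1.77 ± 0.34, while Mnt differed by -0.11 ± 0.06 and did not pass the test.

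Genes of ribosome assembly were higher as a group, with 36 of 43 up and 1 down and a median difference of 1.08, against -0.03 over all genes. Npm1, the nucleolar chaperone nucleophosmin, read 7.09, 6.0 and 6.8 in normal samples and 9.82, 10.33 and 10.81 as the lowest, median and highest of the 8, a difference of 3.67 ± 0.27 (SE, limma adjusted p = 0.000204). Dkc1, the pseudouridine synthase of H/ACA particles and of telomerase, rose by 3.80 ± 0.37. Nop58, a core protein of box C/D particles, rose by 3.41 ± 0.34, Ncl, nucleolin, by 3.36 ± 0.36, and Gnl3, nucleostemin, by 3.27 ± 0.28. The large RNA polymerase I subunits Polr1a and Polr1b rose by 1.41 ± 0.09 and 1.82 ± 0.11. Ubtf, the activator of ribosomal RNA genes, differed by -0.02 ± 0.05 and Rrn3 by 0.17 ± 0.09, and neither passed the test. Tcof1, which encodes treacle, was the member that fell, by 0.38 ± 0.07. Many copies related to genes such as Npm1 exist in the mouse genome, and signal from such copies could not be separated here.

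Protein folding and nuclear transport followed. Of 19 chaperone genes, 18 were higher and none was lower, with a median difference of 1.55, and Cct7 did not pass. Hsp90aa1, the inducible cytosolic HSP90, read 7.65, 6.17 and 8.68 in normal samples and 10.47, 11.34 and 12.02 as the lowest, median and highest of the 8, a difference of 3.80 ± 0.53 (SE). The mitochondrial chaperonin Hspd1 rose by 3.28 ± 0.23, the endoplasmic reticulum chaperone Hsp90b1 by 2.84 ± 0.39, and 7 of the 8 measured subunits of the cytosolic chaperonin TRiC were higher. Of 22 nuclear transport genes, 18 were higher and none was lower. Ipo7, an importin that carries ribosomal proteins, read 6.13, 4.24 and 5.77 in normal samples and 8.38, 9.0 and 9.37 as the lowest, median and highest of the 8, a difference of 3.61 ± 0.41. Xpo1, the main exportin, rose by 2.48 ± 0.35, and Xpot, which exports transfer RNA, by 1.90 ± 0.10.

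Metabolic supply genes were higher in most cases. Nucleotide, polyamine and one-carbon synthesis had 23 of 27 genes up and 1 down. Srm, the spermidine synthase, read 8.64, 8.52 and 8.42 in normal samples and 9.89, 10.20 and 10.83 as the lowest, median and highest of the 8. Odc1, the first enzyme of polyamine synthesis, rose by 1.33 ± 0.16 (SE), Cad, which opens pyrimidine synthesis, by 1.39 ± 0.11, and Ppat, which opens purine synthesis, by 1.82 ± 0.15. The lower member was Impdh1, at -0.69 ± 0.13. Translation initiation had 13 of 18 up and Eif4h down, led by Eif3a at 2.78 ± 0.26. Mitochondrial import and translation had 15 of 19 up, led by Tomm70a at 2.21 ± 0.21, and without normal replicate 3 the count was 8. Nutrient uptake had 8 of 13 up, led by the transferrin receptor Tfrc at 3.58 ± 0.43 and including the amino acid transporter Slc7a5 at 1.60 ± 0.10.

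Glycolysis and serine synthesis had 11 of 19 genes up and 1 down, and the lactate dehydrogenase subunits went opposite ways. Ldha rose by 0.62 ± 0.04 (SE, limma adjusted p = 9.82e-05). Ldhb read 9.68, 9.62 and 9.66 in normal samples and 4.03, 5.57 and 7.07 as the lowest, median and highest of the 8, a difference of -4.05 ± 0.61. A second probe set for Ldhb fell by 2.70. Psat1, a serine synthesis enzyme, rose by 1.47 ± 0.07 and Hk2 by 1.16 ± 0.15. The glucose transporters Slc2a1 and Slc2a3 differed by -0.25 ± 0.22 and 0.12 ± 0.20 and did not pass.

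**Figure D3:**
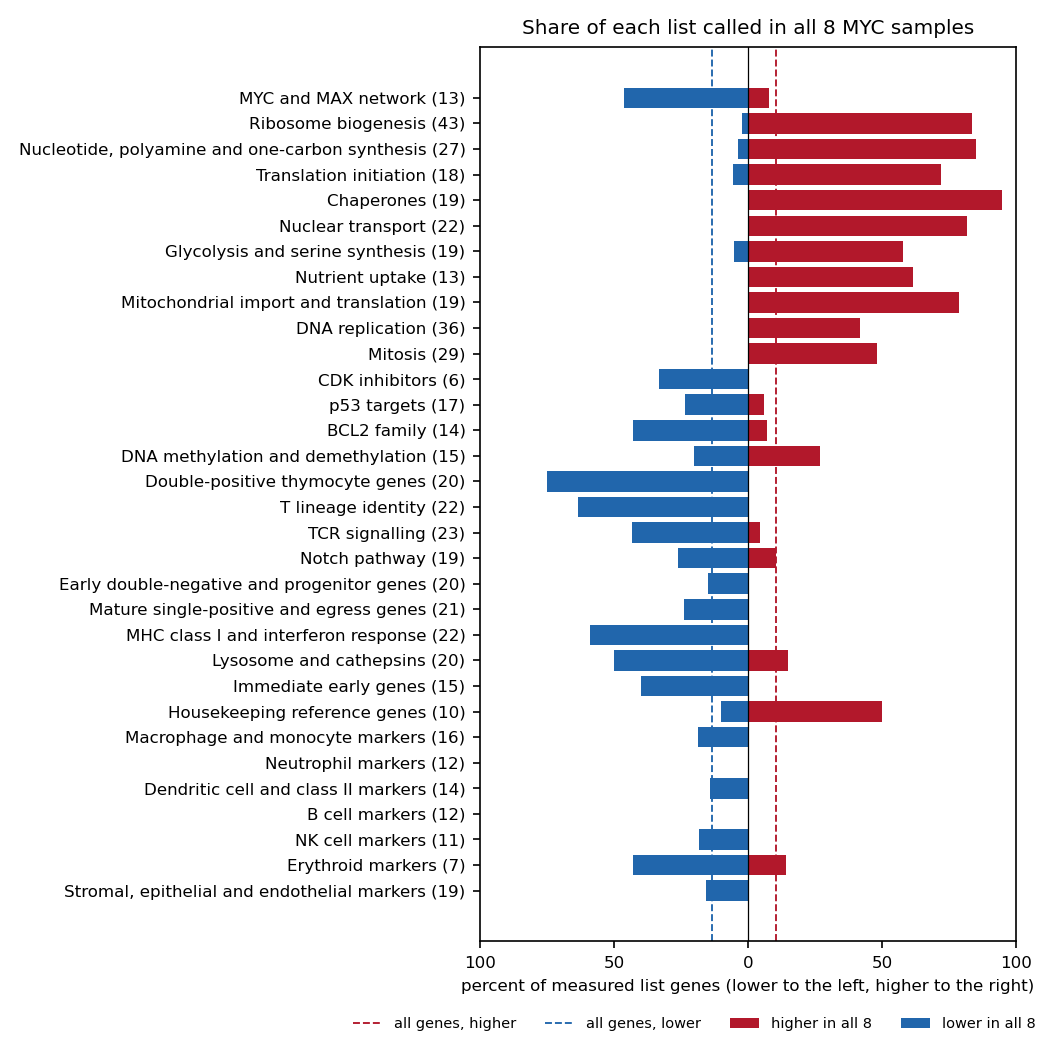
Percent of the measured genes of each list called higher (red, to the right) or lower (blue, to the left) in all 8 MYC samples, with the number of measured genes in brackets and dashed lines at the shares of all genes (10.6% higher, 13.4% lower). Chaperones reach 94.7% and ribosome assembly genes 83.7% on the higher side, and double-positive thymocyte genes reach 75.0% on the lower side. The lists were chosen with earlier results of these data known, and all genes include those at the floor.

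The best-known MYC binding sequence, the E-box CACGTG, which reads the same on both strands, was counted in RefSeq promoter windows of GRCm38.p6 that hold 250 bases before and 50 after each gene start. Of genes higher in all 8 that had a window, 259 of 1718 (15.1%) held the motif, against 247 of 2171 (11.4%) of the lower genes, 8.33% of genes called neither way and 9.50% of all tested genes with a window. Over all 32851 windows of that table the share was 7.15%. With only the bases before the start, the shares were 11.5%, 9.86% and 7.28% for higher, lower and neither. The mean number of CpG pairs per window moved the same way, at 23.7, 21.1 and 14.3, and its part in these shares was not tested. By list, the motif was held by 9 of 37 ribosome assembly genes, 5 of 20 nuclear transport genes, 4 of 24 nucleotide synthesis genes, 1 of 15 chaperone genes and 0 of 15 double-positive thymocyte genes. The chaperone share of 6.67% rests on 1 gene and cannot be told from the 9.50% of all tested genes. Before the start alone, the ribosome assembly count was 3 of 37, or 8.11%, the same share as over all tested genes, and the nuclear transport count was 4 of 20.

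The following stretches show the motif in capitals before the start of 3 genes that rose (Hspd1, Ipo7 and Timm9) and 2 that fell (Mxd4 and Lef1), 5′ to 3′ on the strand of the gene, because the motif occurred on both sides of the comparison. They lie at chr1:55088288-55088353 on the minus strand, chr7:110018148-110018213 on the plus strand, chr12:71136698-71136763 on the minus strand, chr5:34187894-34187959 on the minus strand and chr3:131156185-131156250 on the plus strand, in that order, all in RefSeq GRCm38.p6 and wholly before the annotated gene start.
Hspd1: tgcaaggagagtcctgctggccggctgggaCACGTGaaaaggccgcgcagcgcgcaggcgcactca
Ipo7: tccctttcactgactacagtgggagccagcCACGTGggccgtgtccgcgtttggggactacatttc
Timm9: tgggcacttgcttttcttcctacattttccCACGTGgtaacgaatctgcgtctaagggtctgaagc
Mxd4: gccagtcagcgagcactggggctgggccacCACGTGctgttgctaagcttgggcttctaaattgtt
Lef1: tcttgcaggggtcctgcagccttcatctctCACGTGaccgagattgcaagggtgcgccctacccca
These 5 genes differed by 3.28, 3.61, 1.31, -2.01 and -2.04 between MYC and normal samples. A match is a string of letters in the reference, and binding was not measured.

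Cell cycle genes were split. Of 36 DNA replication genes, 15 were higher and none lower, with a median difference of 0.33. Pola1, the catalytic subunit of polymerase alpha, rose by 2.81 ± 0.35 (SE) and Mcm6, of the replicative helicase, by 1.09 ± 0.05, while Mcm2, Mcm3, Mcm5, Mcm7 and Pcna differed by -0.14 to 0.14 and did not pass. Of 29 mitosis genes, 14 were higher and none lower. Bub1, a spindle checkpoint kinase, read 4.41, 3.62 and 5.03 in normal samples and 6.36, 7.06 and 8.20 as the lowest, median and highest of the 8. Kif11, the spindle motor, rose by 2.59 ± 0.38 and Mki67 by 1.91 ± 0.30. Cdk1, Plk1, Aurka, Ccnb2 and Cdc20 differed by -0.25 to 0.03 and did not pass. Top2a rose by 2.34 ± 0.45 on 1 probe set, and a second, dim probe set at -0.72 did not pass. In none of the 14 higher mitosis genes was the change smallest in pre-tumor thymocytes, against 567 of all 2112 higher genes.

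The length of genes and differences among the normal samples moved with these results. Among 6490 genes with a mean level above 6 and a RefSeq span, higher calls went from 13.6% in the shortest of 5 equal groups by genomic span through 22.1%, 27.3% and 34.8% to 32.7% in the longest, and lower calls from 29.4% to 21.3%. The median span of the 14 higher mitosis genes was 31765 bases against 10450 for the others of that list. It was 22068 against 11501 for replication genes and 13397 against 12162 for ribosome assembly genes, so the difference was small in the last list. Normal replicate 2 read more than 1 below the mean of the other normal samples for 196 genes, against 4 and 13 genes for normal replicates 1 and 3, and 148 of the 196 were among the genes higher in all 8. Among the genes split by span, 5 of the shortest group and 72 of the longest were that far down in normal replicate 2. Normal replicate 3 went the other way, as the lowest normal sample for 55.7% of the shortest group and the highest for 48.2% of the longest. It was also the highest normal sample for 50.3% of genes higher in all 8 and 89.5% of chaperone genes. Without normal replicate 3, higher calls went from 11.5% in the shortest group to 33.8% in the longest. Without normal replicate 2, 139 of the 148 kept their call, higher calls went from 11.2% to 28.2% over the span groups, and the list counts were 36 of 43 for ribosome assembly, 17 of 19 for chaperones, 17 of 22 for nuclear transport, 13 of 36 for replication and 10 of 29 for mitosis. The difference then was 3.13 for Hsp90aa1, 3.04 for Ipo7, 2.85 for Ncl, 3.36 for Npm1, 1.33 for Mga and 1.73 for Top2a, each still called. The part of RNA quality or transcript length in these calls was not tested.

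**Figure D4:**
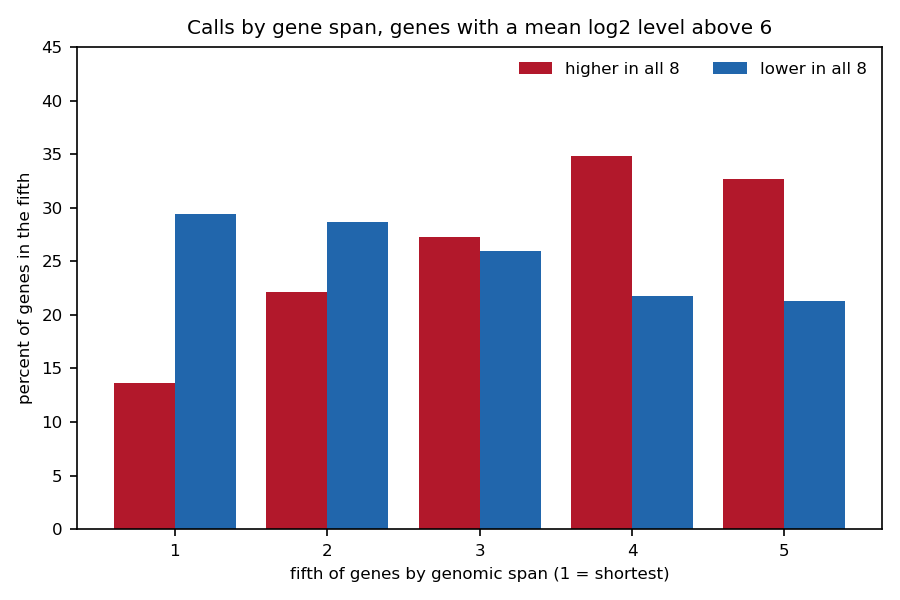
Percent of genes called higher (red) or lower (blue) in all 8 MYC samples in each of 5 equal groups by genomic span, for 6490 genes with a mean log2 level above 6. Higher calls climb from 13.6% in the shortest group to 34.8% in the group next to the longest, and lower calls go from 29.4% to 21.3%.

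Of 6 CDK inhibitors, Cdkn1b (p27) fell by 1.81 ± 0.12 (SE) and Cdkn2d (p19 of the INK4 family) by 2.22 ± 0.27, and the other 4 did not pass. Of 14 BCL2 family genes, 6 fell and 1 rose. Bcl2l1, which encodes the survival protein BCL-XL that keeps double-positive thymocytes alive, read 9.12, 9.22 and 9.03 in normal samples and 5.16, 5.29 and 6.8 as the lowest, median and highest of the 8, a difference of -3.51 ± 0.17 (limma adjusted p = 6.59e-05). The survival genes Mcl1 and Bcl2 fell by 1.06 ± 0.09 and 0.99 ± 0.12. The killers Bmf and Bad fell by 2.04 ± 0.19 and 0.49 ± 0.12, and Bid rose by 0.81 ± 0.10. Of 17 p53 targets, Btg2, Fas, Gadd45a and Bbc3 fell and Ccng1 rose by 2.00 ± 0.22, while Mdm2 differed by -0.05 ± 0.13. The lower share, 23.5%, was within the 21.3% to 29.4% seen by span group among genes with a mean level above 6. Without normal replicate 2, the p53 targets had 3 higher and 3 lower, and the call of Bbc3 was lost without any of several single samples, both normal replicates 1 and 2 among them.

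Double-positive thymocyte genes were lower in 15 of 20 cases and higher in none, with a median difference of -2.23. In such bulk samples, fewer double-positive cells and less RNA per cell cannot be told apart. Rag1 read 11.09, 11.16 and 11.45 in normal samples, 9.61 and 7.77 in pre-tumor thymocytes, 6.18, 5.99 and 3.58 in lymphomas with wild-type Dnmt3b, and 3.95, 6.01 and 6.0 in those without Dnmt3b. Its difference was -4.81 ± 0.74 (SE, limma adjusted p = 0.00271), and the pre-tumor samples lay between the normal samples and the lymphomas. Dntt, the terminal transferase that adds bases at receptor joints, read 9.62 to 9.82 in normal samples, 3.4 to 4.76 in the 6 lymphomas, and 8.11 and 7.09 in pre-tumor thymocytes. Satb1, a chromatin organiser of thymocytes, read 11.82 to 11.97 in normal samples, 6.8 to 8.88 in lymphomas, and 10.81 and 9.77 in pre-tumor thymocytes.

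Rag2, the partner of RAG1, was at the floor in 7 of the 8, so its difference of -2.48 is a lower limit on the fall. Cd4 read 10.72 to 10.78 in normal samples and 8.50 to 9.41 in the 8. Cd8a, at 11.98 to 12.14, ranged from 6.48 to 11.39 over the 8, and Cd8b1 was lower in all 8 with an adjusted p of 0.0729 that missed the threshold. In 14 of the 15 lower double-positive genes the change was smallest in pre-tumor thymocytes, against 1087 of all 2679 lower genes. By limma's F test over the 3 MYC groups, the adjusted p was 0.053 for Dntt, 0.11 for Satb1 and 0.423 for Rag1, so none of the 3 passed. Stage, age and the EGFP+ sort cannot be told apart in that pattern.

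**Figure D5:**
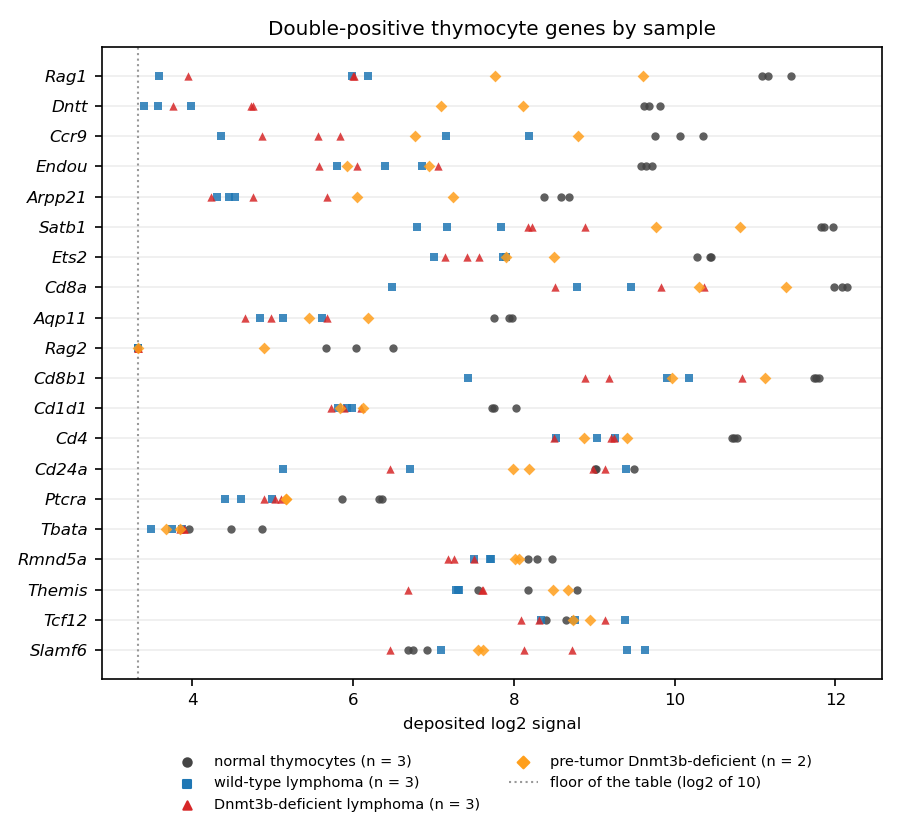
Deposited log2 signal of the 11 samples for the 20 measured double-positive thymocyte genes, ordered from the largest fall to the largest rise, with groups by colour and shape and a dotted line at the floor. For Rag1, Dntt and Satb1 the 2 pre-tumor samples lie between the normal samples and the lymphomas, and for Cd4 all 8 MYC samples sit at 8.50 to 9.41.

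Genes of T lineage identity were lower in 14 of 22 cases and higher in none. Cd3e, a chain of the T cell receptor complex, read 10.25, 10.57 and 10.58 in normal samples and 8.70, 9.07 and 9.28 as the lowest, median and highest of the 8, so this T cell marker was well above the floor in every sample, at a lower level in the 8. Lef1 fell by 2.04 ± 0.40 (SE) and Bcl11b, the T lineage commitment factor, by 1.64 ± 0.18. Of 23 T cell receptor signalling genes, 10 were lower, such as Lat at -1.40 ± 0.17, and Malt1 was higher, a call lost without normal replicate 1. Of 19 Notch pathway genes, 5 were lower and 2 higher: Notch1 fell by 1.76 ± 0.39 and Notch3 by 1.23 ± 0.12, and the receptor-cleaving protease Adam10 rose by 1.27 ± 0.18. The call of Notch1 was lost without normal replicate 2, and leaving out any single sample but Dnmt3b-deficient lymphoma replicates 1 and 3 left 1 Notch pathway gene higher. Early double-negative genes were lower in 3 of 20 cases (15.0%), near the 13.4% of all genes, and mature single-positive genes in 5 of 21 (23.8%). Among genes with a mean level above 6, 21.3% to 29.4% were lower by span group. The mature single-positive share and the 26.3% of Notch pathway genes that were lower lay within that range. Of 15 immediate early genes, 6 were lower, and without either normal replicate 1 or normal replicate 2 the count was 3.

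Antigen presentation and interferon response genes were lower in 13 of 22 cases, with a median difference of -0.89. Irf7, the main interferon-inducing factor, read 7.85, 7.46 and 6.90 in normal samples and 4.83, 5.22 and 5.93 as the lowest, median and highest of the 8. Usp18 fell by 1.75 ± 0.11 (SE), and the peptide loading genes Tapbp, Tap1 and Tap2 fell by 1.47 ± 0.17, 1.36 ± 0.19 and 1.23 ± 0.20. H2-T10, a class I-like gene that RefSeq lists as a transcribed pseudogene, fell by 3.70 ± 0.33, and reads of close class I copies could not be separated. Lysosomal genes were lower in 10 of 20 cases and higher in 3. Ctsl, the cathepsin known for antigen processing in the thymus, read 10.16, 9.96 and 10.14 in normal samples and 4.91, 5.78 and 7.74 as the lowest, median and highest of the 8, and Lamp2 rose by 2.28 ± 0.25.

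Among DNA methylation genes, 4 of 15 (26.7%) were higher and 3 (20.0%) lower. By span group, genes with a mean level above 6 were higher in 13.6% to 34.8% and lower in 21.3% to 29.4%. Neither share of the DNA methylation genes exceeded those ranges. Dnmt1, the maintenance methyltransferase, rose by 0.24 ± 0.05 (SE, limma adjusted p = 0.00783), with a gap of 0.01 between the nearest samples, and this call was lost when the arrays were quantile normalized again. Dnmt3a differed by -0.58 ± 0.29 and did not pass. Dnmt3b, the gene deleted in 5 of the 8, read 5.22 to 5.31 in normal samples and 5.07 to 5.70 in the 8, and which exons its probe set reads was not given, so it does not check the deletion. Tet2 rose by 0.98 ± 0.25, a call lost without any 1 normal sample, without wild-type lymphoma replicate 1 or without pre-tumor replicate 2, and Mbd4, a thymine glycosylase, by 0.62 ± 0.11.

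Of the markers of other cells, none of 12 neutrophil and none of 12 B cell markers was called. Among 11 NK cell markers, 2 fell (18.2%) and 9 were not called, and the median difference of the list was 0. The 2 that fell were Nkg7 and Prf1, and the call of Prf1 was lost without any 1 normal sample. Of 16 macrophage and monocyte markers 3 fell (18.8%, against 13.4% of all genes), and the median difference of the list was -0.13. These 3 were the complement genes C1qa, C1qb and C1qc, by 1.27 ± 0.15, 1.02 ± 0.18 and 1.00 ± 0.14 (SE). Nkg7, of NK and cytotoxic cells, fell by 2.66 ± 0.25, while Klra8, Klrd1, Klre1 and Klrk1 were at the floor on all 11 arrays. The class II genes H2-Ab1 and Cd74 fell by 1.36 ± 0.27 and 1.30 ± 0.19. They were 2 of 14 dendritic cell and class II markers (14.3%, near the 13.4% of all genes), and without normal replicate 3 the count was 6. The call of Cd74 was lost when arrays were centred on their medians or the 8 were fitted as 1 group. Of 7 erythroid markers Tfrc rose and 3 fell. Of 19 stromal, epithelial and endothelial markers 3 fell (15.8%, also near the share of all genes), with Dcn and Lum at the floor on all arrays. The macrophage gene Lyz2 was not called: it read 7.55 to 8.09 in normal samples and from 4.73 to 10.41 over the 8, highest in wild-type lymphomas. Summed on the linear scale, 16 macrophage markers gave 608 to 760 in normal samples, 294 to 365 in pre-tumor thymocytes, and 408 to 2500 and 332 to 742 in lymphomas with and without Dnmt3b. The 12 neutrophil markers gave 400 to 617, 189 to 190, 204 to 1450 and 203 to 1160 in the same order, and the 14 dendritic and class II markers 1050 to 1460, 580 to 694, 769 to 1020 and 486 to 623. The 11 NK cell markers gave 391 to 483, 292 to 407, 242 to 1000 and 206 to 511 in that order. The part of these cells in the lower genes was not tested. Of 10 reference genes often used for scaling, 5 were higher, such as Hprt at 1.89 ± 0.16, and Actb fell by 0.39 ± 0.09, a call lost without any 1 normal sample.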

How the data were processed

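Gene expression was measured on 11 whole-transcript arrays in 4 groups, from 300 ng of total RNA each. The deposited series table holds log2 values that the authors made with Partek and RMA, per the submitters' processing notes, and the background settings, probe annotation and genome build were not given in the sources used here. Per array, 23.6 to 25.7% of values were at the floor, and array medians were 4.55 to 4.62. From these values, 6573 rows with identifiers below the annotated range, probably controls, were left out. Tested by the same rule, 419 of these rows were called higher and 435 lower (13% in all). Of the probe sets kept, 10.5% were called higher and 11.6% lower. The rows left out therefore cannot be read as rows without change, and the source of their calls was not tested. The other 28939 probe sets were fitted by lmFit and eBayes of limma 3.58.1, run under R 4.3.3, with 1 mean per group, with Benjamini-Hochberg adjustment, and the steps were tested on simulated data. The number of arrays limits the precision. The labels call the samples biological replicates.

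Gene symbols came from the platform annotation: 21789 probe sets had 1 symbol, 1621 several and 5529 none, and the last 2 kinds were not named. For 999 genes with several probe sets, the one with the highest mean was used. Coordinates and promoter windows were from RefSeq GRCm38.p6. In the 32 gene lists, 43 entries had no probe set with that single symbol and were not analysed here. The lists and the genes described were chosen with earlier results of these data known. Named were the 12 genes each way with the widest gap, the 5 each way that moved by at least 2 with the smallest range over the 8, the 5 called genes with the smallest F test p, up to 6 members per list by size of difference, the 3 highest markers of each other cell type, and Myc, Max, Dnmt1, Dnmt3a and Dnmt3b. Other list members were added for contrast after their values were seen. Small RNAs, predicted genes and receptor segments were outside this rule.

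Alternatives were other normalizations, filters, moderation and thresholds, all 8 samples as 1 group, each MYC group or each sample left out, and the replicate number as a block. Splits by gene span and list counts without each sample were added after seeing the data. Deviations from the group means correlated at -0.331 to 0.322 between same-numbered samples and at -0.322 to 0.331 between the others. With 2 or 3 samples per group such values are partly fixed by the centring, so they cannot settle whether replicate numbers pair samples.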

Additional observations from a re-analysis of the deposited data

Results flagged for a closer look

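Dropping probe sets at the floor on all arrays raised the count of probe sets differing among the 3 MYC groups from 18 to 50. With them kept, few named genes differed among these groups by limma's F test over all probe sets. Of those called in all 8, Ifnz (adjusted p = 0.00358) had means of 5.95 in normal, 5.43 in wild-type lymphoma, 4.77 in Dnmt3b-deficient lymphoma and 4.45 in pre-tumor samples. Gstk1 (adjusted p = 0.0184) had 5.68, 3.41, 3.61 and 4.66, Fanca (adjusted p = 0.0413) had 6.41, 7.07, 7.16 and 6.77, and Hand1 (adjusted p = 0.0481) had 5.50, 5.20, 5.24 and 4.78, in the same order. As the call in all 8 requires, all 4 changed in 1 direction in every MYC group, and the groups differed in the size of the change.

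Others were not called in all 8. AI506816 (adjusted p = 0.000818) averaged 8.72 in pre-tumor samples and 8.59 in lymphomas without Dnmt3b, against 3.37 in lymphomas with wild-type Dnmt3b and the floor in normal samples. Rps6ka6 (adjusted p = 0.00134) averaged 6.29 in pre-tumor samples and was at the floor in the other groups. Akr1c18 (adjusted p = 0.00424) averaged 4.62 in normal samples, the floor in lymphomas and 6.10 in pre-tumor samples. Sema6a (adjusted p = 0.00994) averaged 5.84, 4.97 and 4.11 and Mgst2 (adjusted p = 0.0184) 4.71, 6.39 and 7.98 in wild-type lymphoma, Dnmt3b-deficient lymphoma and pre-tumor samples. Gm4759 (adjusted p = 0.0113) averaged 3.46, 3.34 and 4.66, and Lmcd1 (adjusted p = 0.0291) 4.35, 4.66 and 4.01. Mterf2 (adjusted p = 8.69e-06) and Zfp985 (adjusted p = 9.39e-06) averaged only 3.61 and 4.08 in pre-tumor samples with lymphomas at or next to the floor. Groups at the floor have no spread, which makes p-values small. The moderation added only 0.46 prior to 7 residual degrees of freedom, so it hardly raised such spreads.

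Single samples also stood apart from the other 7 MYC samples in 11 of 190 named genes, by the gap to the nearest sample over the whole range. Chance alone sets apart about 1 gene in 20. Pre-tumor replicate 1 was the outlying sample for Bcl2l1 (6.8), Eif2b3 (7.26), Gpr162 (5.61), Pole (7.78) and Slc37a2 (5.4). Dnmt3b-deficient lymphoma replicate 1 was outlying for Ccnb1ip1 (9.05), Cdkn2d (5.24), Lef1 (6.97), Pgam1 (9.49) and Tox (5.1), and Dnmt3b-deficient lymphoma replicate 2 for Bid (7.56). All 11 kept their call when that sample was left out.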

How the results depend on the processing

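Over all alternatives run, the counts higher and lower in all 8 stayed within 1.5 times 3039 and 3355, except that a log2 difference of at least 1 left 1523 higher, 958 lower and 2582 by the adjusted p alone. An adjusted p under 0.01 left 4596 by the adjusted p alone and 8 probe sets differing among the MYC groups. That second count, 18, also became 40 with arrays centred on their medians, 82 when the dimmest 25% were dropped, 50 when probe sets at the floor on all arrays were dropped and 11 without moderation, and with each sample left out it ranged from 9 to 137. With 1 sample left out, higher calls ranged from 2503 (without normal replicate 2) to 3186, lower calls from 2715 (also without normal replicate 2) to 3577, and calls by the adjusted p alone from 5369 to 7587. Without a pre-tumor sample, the lone other sample was assumed to vary like the other groups. With the replicate block, the counts were 2709 higher, 2947 lower, 7519 became 6261 and 18 became 4. Whether the replicate numbers pair samples is not known. Centring on array medians moved the share of higher calls from 47.5% to 53.1%. No named call changed direction under any alternative. With samples left out or thresholds changed this was set by the rule, since all 8 samples already lay beyond all 3 normal samples. Of 173 named calls, 146 to 173 were kept, and the cause of the losses was not tested. Calls lost under 3 or more settings were Actb, Alas2, Bbc3, Ccr9, Egr1, Gimap6, Junb, Jund, Kit, Krt14, Malt1, Notch1, Prf1, Slc4a1, Tet2 and Tet3, and under 2 Cd6, Cd74, Col3a1, Dnmt1 and Pag1. Arrays hold no counts, so depth is limited only by signal over the floor: 4768 probe sets were at the floor on all 11 arrays.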

Other observations

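Small and non-coding RNA genes lay outside the rule for named genes, and those given here were chosen after their values were seen. The array reads host or precursor transcripts, so no mature RNA level is given. Of 53 small nucleolar RNA genes, 7 (13.2%) were higher and 3 (5.66%) lower in all 8, against 10.6% and 13.4% of all genes. Of 297 microRNA genes 2 (0.673%) were higher and 10 (3.37%) lower, both below the shares of all genes. The single genes given next therefore do not stand for their kinds. Gas5, a host of many box C/D RNAs, read 9.48, 9.19 and 9.75 in normal samples and 10.77 to 11.46 in the 8. Snora75, which lies in an intron of Ncl, rose by 2.64 ± 0.29 (SE, limma adjusted p = 0.000702), and Snord61 fell by 2.05 ± 0.26. Mir17hg, the host of the miR-17 cluster and a known MYC target, rose by 0.78 ± 0.22 (adjusted p = 0.0377).

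Mir181b-1 lies in a cluster with Mir181a-1, whose product miR-181a is known for tuning T cell receptor sensitivity in thymocytes. Mir181b-1 read 8.42, 7.70 and 8.33 in normal samples, 7.22 and 6.09 in pre-tumor thymocytes, 4.08, 4.31 and 6.08 in lymphomas with wild-type Dnmt3b, and 4.10, 4.94 and 5.89 in those without, a difference of -2.66 ± 0.56 (SE, limma adjusted p = 0.0102). Mir181a-1 differed by -0.43 ± 0.36 (adjusted p = 0.496) and was not called. The mature product of Mir181b-1 in RefSeq, with the seed (bases 2 to 8) in capitals, is shown for reference.
mmu-miR-181b-5p: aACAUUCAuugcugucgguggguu

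Mt2, the second common metallothionein, also rose, by 3.17 ± 0.67, but ranged from 5.93 to 10.16 over the 8 where Mt1 ranged from 9.57 to 11.40.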
